A study of Rattus norvegicus with 72 samples.

Results

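The glucose transporter gene Slc2a1 and 8 genes of glycolysis and lactate formation (Hk2, Pfkp, Aldoa, Tpi1, Gapdh, Pgk1, Eno1 and Ldha) were followed across all samples of a rat ligament injury study. They were found by gene symbol or accession and made up 9 of the 15960 genes named on the array. They were read by 12 probes, because Gapdh, Pgk1 and Eno1 had 2 each. The study took the medial collateral ligament, which steadies the knee on its inner side, from male adult Sprague-Dawley rats. There were 5 unmanipulated ligaments, and 5 severed and 5 sham-operated ligaments on each of days 1, 2, 4, 10 and 14, with 3 of each on day 7. Sham animals had the same isoflurane anaesthesia and buprenorphine analgesia and an operation on both knees that left the ligament uncut. The set was completed by 5 columns of fibroblasts grown out of ligaments at passages 3 to 7, and by a universal rat reference RNA measured 3 times in the dye Cy5 and 3 times in Cy3. Serial passages are not independent cultures and the fibroblast columns were not tied to a passage, so p-values rest on the spread between columns, pooled over all groups, and not on that between cultures.

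Glycolysis splits glucose into pyruvate in the cytosol and yields ATP without oxygen. Glucose enters many cells through the transporter GLUT1 (Slc2a1), is trapped as a phosphate, is split into three-carbon sugars and is then oxidised, and lactate dehydrogenase turns the pyruvate into lactate. Adult ligament and tendon hold few cells and few vessels and are known for their reliance on glycolysis, while skeletal muscle, which lies close to the ligament, runs glycolysis partly through isoforms of its own. Many genes of the pathway are known targets of hypoxia-inducible factor, which binds short DNA elements with the core ACGTG or GCGTG.

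The first steps are represented by Hk2, the inducible hexokinase that phosphorylates glucose, by Pfkp, the platelet form of phosphofructokinase at the committed step, by Aldoa, the aldolase of muscle and many other tissues, and by Tpi1, which interconverts the three-carbon sugars. The later steps are represented by Gapdh, which oxidises glyceraldehyde 3-phosphate, by Pgk1, which makes the first ATP of the pathway, and by Eno1, the broadly expressed enolase. Ldha encodes the lactate dehydrogenase subunit that favours lactate formation. Promoter windows from 250 bases before to 50 bases after an annotated start were taken from RefSeq for the rat build GRCr8, and 8 of the 9 genes matched, with 11 windows. Pgk1 was not matched. The letters ACGTG, 1 form of the core element, occurred on either strand in 5 of the 11 windows and in 19.3% of all 33469 windows. ACGTG or GCGTG occurred in 7 of the 11 windows and in 41.6% of all windows. The 5 windows below were chosen because they hold ACGTG, and each match is in capitals (CACGT is ACGTG read on the other strand). They lie at chr5:138002272-138002571 on the plus strand (Slc2a1), chr1:190836728-190837027 on the minus strand (Aldoa), chr4:159652418-159652717 on the minus strand (Gapdh), chr5:166003111-166003410 on the plus strand (Eno1) and chr1:106507842-106508141 on the plus strand (Ldha).
Slc2a1: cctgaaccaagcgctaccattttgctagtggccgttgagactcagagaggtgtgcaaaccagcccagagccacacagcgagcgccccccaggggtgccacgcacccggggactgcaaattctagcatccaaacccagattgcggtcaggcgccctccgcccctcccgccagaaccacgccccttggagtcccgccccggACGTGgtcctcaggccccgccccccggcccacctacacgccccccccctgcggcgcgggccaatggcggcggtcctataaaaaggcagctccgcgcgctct
Aldoa: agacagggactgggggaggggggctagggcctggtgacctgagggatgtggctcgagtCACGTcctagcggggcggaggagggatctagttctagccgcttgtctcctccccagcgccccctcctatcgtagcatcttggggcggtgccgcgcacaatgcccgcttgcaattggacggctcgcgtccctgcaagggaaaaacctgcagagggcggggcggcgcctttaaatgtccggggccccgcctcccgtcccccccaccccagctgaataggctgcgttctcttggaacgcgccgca
Gapdh: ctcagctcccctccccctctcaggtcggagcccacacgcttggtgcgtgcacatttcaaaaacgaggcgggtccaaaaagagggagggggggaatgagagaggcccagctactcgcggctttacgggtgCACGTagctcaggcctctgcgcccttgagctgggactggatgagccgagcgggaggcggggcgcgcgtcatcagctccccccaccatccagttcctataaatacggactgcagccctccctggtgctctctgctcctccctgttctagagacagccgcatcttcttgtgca
Eno1: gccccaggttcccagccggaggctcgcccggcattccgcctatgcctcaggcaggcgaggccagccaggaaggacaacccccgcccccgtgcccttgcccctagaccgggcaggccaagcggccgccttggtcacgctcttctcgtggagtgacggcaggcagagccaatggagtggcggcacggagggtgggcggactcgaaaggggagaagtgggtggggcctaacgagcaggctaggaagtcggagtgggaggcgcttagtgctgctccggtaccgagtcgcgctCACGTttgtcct
Ldha: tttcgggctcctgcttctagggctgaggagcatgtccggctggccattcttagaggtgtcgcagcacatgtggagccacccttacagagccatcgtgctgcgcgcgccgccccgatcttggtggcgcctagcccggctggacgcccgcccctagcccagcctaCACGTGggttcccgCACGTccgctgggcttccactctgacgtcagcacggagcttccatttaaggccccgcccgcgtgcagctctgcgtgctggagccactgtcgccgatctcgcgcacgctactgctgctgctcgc

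The match lay at position -51 from the start in Slc2a1, -192 in Aldoa, -121 in Gapdh and +39 in Eno1. Ldha held 3 matches, at -87, -86 and -73, of which the first 2 overlap on opposite strands. Aldoa had 2 further windows and Eno1 1 further window without ACGTG, and the windows of Hk2, Pfkp and Tpi1 held none. A match describes these letters only.

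Levels below are log2 values of quantile-normalised intensity with a floor of 5.64, and differences are log2 differences with their standard error (SE) from 1 limma fit. The threshold was an adjusted p of 0.05 over all 40981 probes tested. Of the 72 columns, 2 were left out because over 50% of their stretches of 500 spots were misread, with a correlation with the other columns under 0.3 (96.4% in replicate 2 of severed day 7 and 56.6% in replicate 4 of severed day 4), and 5 were left out in part. Median intensity ran from 8 to 567 in the columns kept, and 10.7% to 86.5% of their gene spots exceeded the 95th percentile of the negative controls. A column holds a whole piece of tissue, so fewer cells of a type and less RNA per cell cannot be told apart. Beside ligament and tendon markers, all 14 skeletal muscle genes measured were above the negative controls in every unmanipulated column.

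All 12 probes passed the filter on low values, but they were not measured equally well. The brighter Gapdh probe was above the negative controls in all 72 columns. Slc2a1, Tpi1 and the brighter Pgk1 probe were above them in 68 columns each, and Aldoa, Ldha and the brighter Eno1 probe in 65 each. Pfkp was above them in 40 columns and Hk2 in 20. Hk2 was not well above background in any column of sham days 1, 2, 4 and 7 or of severed day 4, and Pfkp in none of sham day 14, so these groups give a bound only. The second Pgk1 probe was above the controls in 14 columns and did not follow the first (r = -0.06 over at most 55 ligament columns). In contrast, the Gapdh probes followed each other at 0.90 and the Eno1 probes at 0.69. The brightest probe stands for its gene below.

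**Figure D1:**
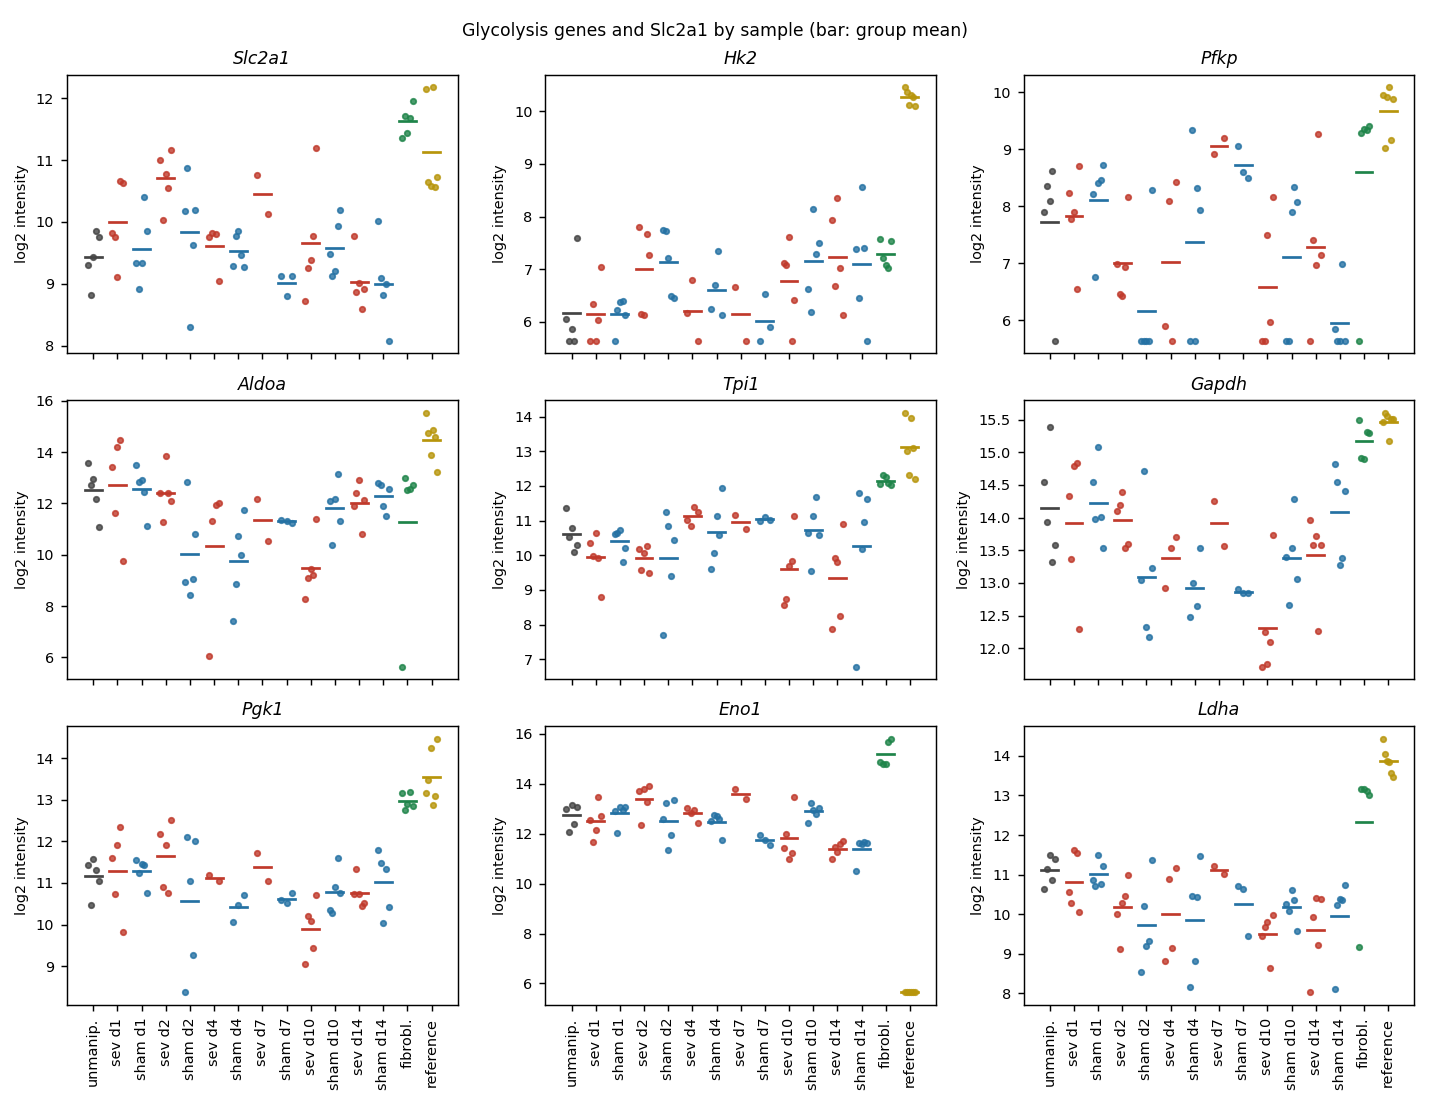
Log2 levels of the 9 genes (quantile-normalised intensity, vertical axes) in each group of samples (horizontal axes), 1 point per column with the group mean as a bar. Fibroblasts stand above the ligament groups for Slc2a1 and Eno1, and Aldoa and Gapdh have their lowest group mean on severed day 10.

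Slc2a1, Pgk1 and Eno1 rose in fibroblasts against unmanipulated ligament, 3 of 9 genes, while 9.02% of all probes passed in either direction and 4.54% passed upward. With no adjustment 7 of 9 had a p under 0.05, as 20.2% of all probes had. The median difference of the 9 genes was 1.22, against 0.02 over all probes, and 8 of 9 were above 0. Both sets of columns were labelled with Cy5.

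Slc2a1 read 11.36, 11.71, 11.44, 11.68 and 11.95 in fibroblasts and 9.31, 8.82, 9.44, 9.86 and 9.76 in unmanipulated ligament. Every fibroblast column lay above every ligament column. The transporter was 4.56-fold higher in fibroblasts (2.19 ± 0.39 SE, n = 5 and 5, limma adjusted p = 3.26e-05).

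Eno1 read 14.87, 14.78, 14.78, 15.66 and 15.80 in fibroblasts and 13, 12.07, 13.16, 12.38 and 13.07 in unmanipulated ligament. These groups did not overlap either, and enolase was 5.43-fold higher (2.44 ± 0.35 SE, limma adjusted p = 4.54e-07). The second Eno1 probe moved by nearly the same amount (2.43 ± 0.41 SE, adjusted p = 1.53e-05). Pgk1 read 13.15, 12.76, 12.90, 13.18 and 12.86 in fibroblasts and 11.43, 10.46, 11.58, 11.32 and 11.04 in unmanipulated ligament, again with no overlap. It was 3.50-fold higher (1.81 ± 0.46 SE, limma adjusted p = 0.00602). With columns scaled to a common median the Eno1 difference was 1.63 (adjusted p = 0.105) and the Pgk1 difference 1.6 (adjusted p = 0.143), and with the misread stretches kept Pgk1 stood at 1.57 (adjusted p = 0.194).

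Tpi1 stood at 1.53 ± 0.59 (limma adjusted p = 0.0970), Gapdh at 1.03 ± 0.42 (0.129), Hk2, above the negative controls in 1 of 5 unmanipulated columns, at 1.12 ± 0.43 (0.0991) and Pfkp at 0.89 ± 0.69 (0.536). Tpi1 did not overlap between the groups, and 4 of the 9 genes were so placed, against 18.6% of all probes. Without unmanipulated replicate 3 Gapdh passed at 1.33 (adjusted p = 0.0438).

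Fibroblast column 1 stood apart for Pfkp, Aldoa and Ldha. Aldoa read 5.64 there and 12.98, 12.53, 12.55 and 12.71 in the other columns, and Ldha read 9.18 against 13.17, 13.17, 13.11 and 13.01. Pfkp read 5.64 against 9.29, 9.35, 9.33 and 9.41. In that column 39.8% of the windows along the rows of the array were misread, while the other members lay near their group. With the column, Ldha differed from unmanipulated ligament by 1.22 ± 0.57 (limma adjusted p = 0.201), and without it by 2.01 ± 0.52 (adjusted p = 0.00687), which brings the count to 4. Aldoa stood at -1.22 ± 0.95 with the column and 0.19 without it, and neither passed.

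The same 3 genes and a further 3 passed against severed ligament of day 14. In that comparison 16.1% of all probes passed, 8.4% upward, and 29.3% had an unadjusted p under 0.05, as had 6 of 9 genes, and the members' median was 2.22 against -0.05 over all probes. Eno1 was 13.7-fold higher in fibroblasts (3.78 ± 0.35 SE, limma adjusted p = 6.23e-13), Tpi1 6.95-fold (2.80 ± 0.59, adjusted p = 0.000342), Ldha 6.66-fold (2.73 ± 0.57, adjusted p = 0.000278) and Slc2a1 6.04-fold (2.59 ± 0.39, adjusted p = 6.27e-07). Pgk1 rose by 2.22 ± 0.46 (adjusted p = 0.000353) and Gapdh by 1.76 ± 0.42 (adjusted p = 0.00192). The Gapdh call was lost with the second Gapdh probe (1.67, adjusted p = 0.164), with median scaling (1.69, adjusted p = 0.103) and with scaling to the 90th percentile (1.08, adjusted p = 0.202), and the Pgk1 call with misread stretches kept (1.90, adjusted p = 0.0546). Hk2 stood at 0.06 ± 0.43, with 1 of 5 severed columns above the negative controls. Without fibroblast column 1 Pfkp also passed, at 2.06 (adjusted p = 0.0277). Both fibroblast comparisons share the fibroblast columns, so they are given side by side only.

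**Figure D2:**
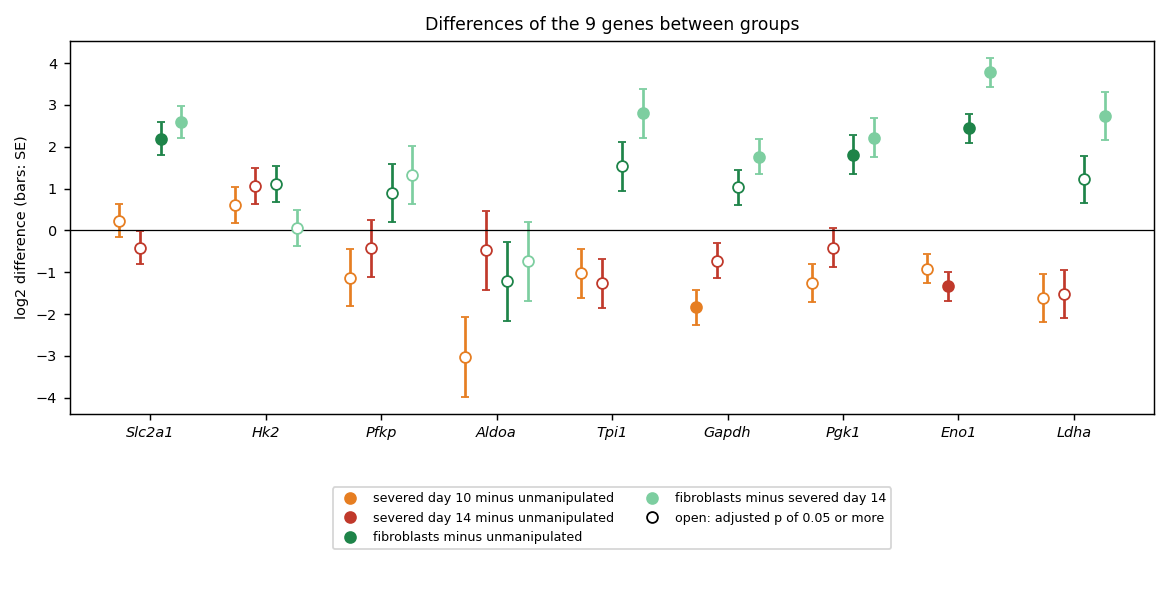
Log2 differences (vertical axis, bars show the SE) of the 9 genes (horizontal axis) in the main comparisons. Filled points mark calls at an adjusted p under 0.05. Fibroblasts lie above 0 for 8 of 9 genes against unmanipulated ligament, and severed day 10 lies below 0 for 7 of 9.

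Fibroblasts and ligament also differed in the other cells they hold. All 14 muscle genes, all 6 red cell genes, 4 of 12 macrophage and neutrophil genes and 3 of 8 endothelial genes fell in fibroblasts against unmanipulated ligament. So did 4 of 9 ligament and tendon genes, among them Tnmd, the gene of tenomodulin (-6.55 ± 0.58, limma adjusted p = 1.06e-13), and Comp, a cartilage and tendon matrix protein (-7.31 ± 1.15, adjusted p = 2.97e-06). Of 10 cell cycle genes 4 rose, led by Ccnb1, a mitotic cyclin (1.89 ± 0.58, adjusted p = 0.025). Over all probes 9.02% were called in this comparison, 4.54% upward. The mean level of the muscle list ran from 6.87 to 7.68 in fibroblasts, where 2 to 10 of its 14 genes exceeded the negative controls, and from 12.86 to 14.96 in unmanipulated ligament. The part of these cells in the glycolytic differences was not tested.

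Among tissue samples, Gapdh fell in severed ligament on day 10 against unmanipulated ligament. It read 11.72, 12.25, 11.76, 12.10 and 13.73 on severed day 10 and 14.54, 13.94, 15.38, 13.32 and 13.58 without manipulation. Replicates 1 to 4 lay below every unmanipulated ligament, and replicate 5 lay among them. The level was 3.58-fold lower (-1.84 ± 0.42 SE, n = 5 and 5, limma adjusted p = 0.00843). It was the 1 of 9 genes called, where 3.03% of all probes were called and 1.93% were called downward. The second Gapdh probe differed by -2.01 ± 0.82 (adjusted p = 0.183). Without unmanipulated replicate 3 the Gapdh difference was -1.53 (adjusted p = 0.0561), and with misread stretches kept it was -1.68 (adjusted p = 0.106).

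The other genes of the lower pathway lay on the same side. The median over the 9 genes was -1.13, against 0.07 over all probes. That median was Pfkp's own difference. On severed day 10 Pfkp was above the negative controls in 1 of 5 columns, with a median level of 5.97, near the floor. Of the 9 genes 5 had an unadjusted p under 0.05, where 16.8% of all probes did. Aldoa read 8.27, 9.09, 9.43, 9.19 and 11.41 on severed day 10 and 13.59, 12.73, 12.96, 12.17 and 11.08 in unmanipulated ligament. Severed replicate 5 again lay within the unmanipulated range, and the difference was -3.03 ± 0.95 (limma adjusted p = 0.0637). Ldha read 9.45, 9.67, 9.79, 8.64 and 9.97 against 10.64, 11.15, 11.49, 10.87 and 11.39. These did not overlap, as held for 4.43% of all probes, and the difference was -1.61 ± 0.57 (adjusted p = 0.106). With misread stretches found along the rows of the array, a setting chosen after seeing the data, Aldoa passed at -3.02 (adjusted p = 0.0285) and Ldha at -1.6 (adjusted p = 0.0140), where 3.76% of all probes did.

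Pgk1 stood at -1.26 ± 0.46 (limma adjusted p = 0.126), Eno1 at -0.92 ± 0.35 (0.148), Tpi1 at -1.03 ± 0.59 (0.378) and Pfkp at -1.13 ± 0.69 (0.417). Slc2a1 stood at 0.23 ± 0.39 (95% interval -0.55 to 1.00) and Hk2 at 0.61 ± 0.43. Hk2, like Pfkp, was above the negative controls in 1 of 5 severed day 10 columns. The differences of Hk2 and Pfkp are limited by signal near background. With the columns scaled to a common median 6 genes and 18.3% of all probes passed, and with scaling to the 90th percentile 5 genes and 12.8% of all probes did.

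Severed day 10 replicate 5 differed from the other columns of its group in more than these genes. Its muscle list averaged 11.96, against 8.38, 7.85, 9.18 and 9.71 in replicates 1 to 4, and 75.8% of its gene spots exceeded the negative controls against 19.3% to 30.4%. In unmanipulated ligament 37.4% to 52.4% did. Without replicate 5 Gapdh stood at -2.19 (limma adjusted p = 0.00153), Aldoa at -3.51 (adjusted p = 0.0355) and Eno1 at -1.33 (adjusted p = 0.0167), which makes 3 genes.

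The muscle list fell with these genes. Of its 14 measured members 10 fell on severed day 10 against unmanipulated ligament, with a median of -4.93. Downward calls made up 1.93% of all probes there. Myl11, a fast myosin light chain, differed by -4.25 ± 0.93 (limma adjusted p = 0.00563), Acta1, skeletal actin, by -4.95 ± 1.31 (0.0249) and Ckm, muscle creatine kinase, by -4.92 ± 0.90 (0.000756). Over 59 ligament columns the level of Aldoa correlated with the mean of the muscle list at 0.67, Ldha at 0.66, Tpi1 at 0.52 and Pfkp at 0.40, and Gapdh did so at 0.60 over 57 columns and Pgk1 at 0.46 over 55. Eno1 stood at 0.18, Slc2a1 at -0.14 and Hk2 at -0.27 over 57 columns, while the median of all tested probes was -0.04. In deviations from the group means the values were 0.68 for Tpi1, 0.60 for Ldha, 0.44 for Aldoa, 0.37 for Gapdh and 0.12 for Eno1. Muscle was not the only list that some of these genes followed. Ldha correlated with hypoxia response genes at 0.69, adipocyte genes at 0.54 and red cell genes at 0.51. Pfkp stood at 0.60 with hypoxia response and 0.47 with adipocyte genes. For Aldoa, Tpi1 and Gapdh the lists of other cell types stayed lower than muscle. These points share arrays and signal depth, and the part of muscle RNA in the day 10 differences was not tested.

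**Figure D3:**
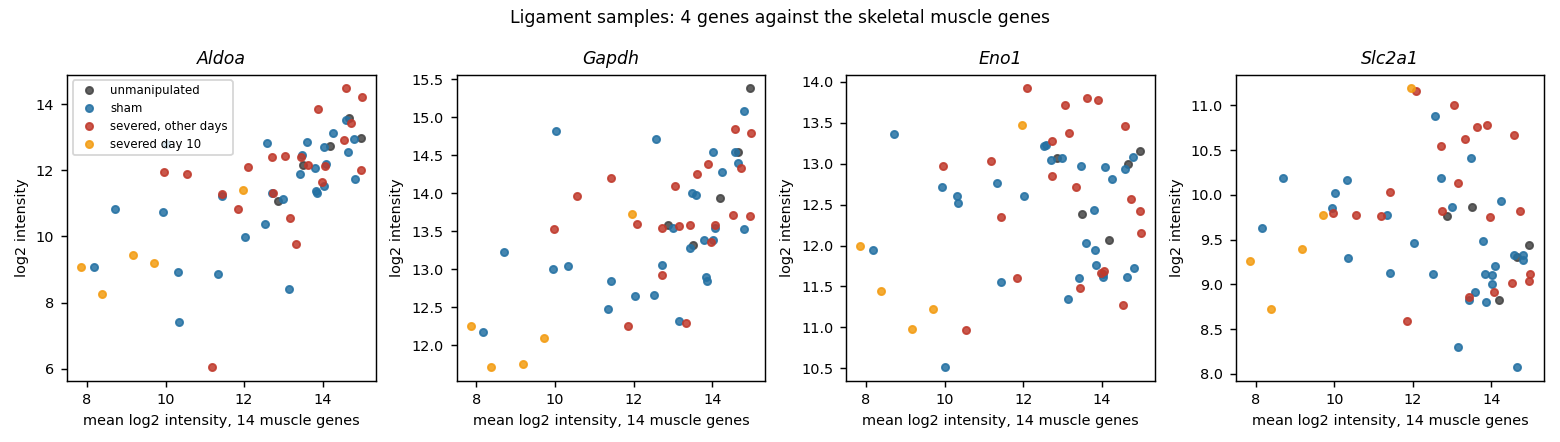
Log2 level of Aldoa, Gapdh, Eno1 and Slc2a1 (vertical axes) against the mean log2 level of the 14 skeletal muscle genes (horizontal axes), 1 point per ligament column. Aldoa and Gapdh rise with the muscle list (r = 0.67 and 0.60), and Slc2a1 and Eno1 show little slope (r = -0.14 and 0.18).

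Genes of the wider glucose pathway were counted as well. The median of 32 other genes of glucose uptake, glycolysis and pyruvate use was -0.47 on severed day 10. Of them 0 rose and 5 fell (1.93% of all probes were called downward). They included the muscle isoforms Pgam2, a phosphoglycerate mutase (-3.64 ± 0.90, limma adjusted p = 0.0152), Eno3, the muscle enolase (-2.84 ± 0.68, adjusted p = 0.0126), and Pfkm, the muscle phosphofructokinase (-2.74 ± 0.58, adjusted p = 0.00377). Pdk2, a kinase that switches off pyruvate dehydrogenase, fell by 2.44 on the log2 scale (adjusted p = 0.0413). Across the ligament columns Pgam2 followed the muscle list at 0.83 (56 columns), Eno3 at 0.82 (55) and Pfkm at 0.75 (59). In fibroblasts against unmanipulated ligament 2 of the 32 rose and 4 fell, led by Pgam2 (-5.29 ± 0.90, adjusted p = 1.64e-05), Bpgm, which makes the 2,3-bisphosphoglycerate of red cells (-4.36 ± 0.40, adjusted p = 4.05e-13), and Eno3 (-3.79 ± 0.68, adjusted p = 4.67e-05). The broadly expressed enolase Eno1 and the muscle enolase Eno3 thus lay on opposite sides in that comparison. Of all probes 9.02% were called there, 4.54% upward.

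By day 14 after severing, Eno1 was the gene called against unmanipulated ligament. It read 10.97, 11.48, 11.27, 11.60 and 11.69, all below the lowest unmanipulated value of 12.07. It was 2.53-fold lower (-1.34 ± 0.35 SE, n = 5 and 5, limma adjusted p = 0.0208), as 1 of 9 genes, where 2.77% of all probes were called. Each SE of this probe pools the spread of all groups. These include the 6 reference columns, where the probe lay at the floor with an SD of 0 and added no spread. The call was lost without severed day 14 replicate 1 (-1.23, adjusted p = 0.0713) and without unmanipulated replicate 1 (-1.27, adjusted p = 0.0560), 3 (-1.23, adjusted p = 0.0720) or 5 (-1.25, adjusted p = 0.0548). The second Eno1 probe stood at -0.78 ± 0.41 (adjusted p = 0.340).

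Ldha read 8.02, 9.92, 10.42, 9.23 and 10.39 on severed day 14 and again did not overlap with unmanipulated ligament, as held for 6.42% of all probes. Its difference was -1.52 ± 0.57 (limma adjusted p = 0.141). Without adjustment p lay under 0.05 for 4 of 9 genes and for 16.3% of all probes. Gapdh stood at -0.73 ± 0.42 (0.399) and Aldoa at -0.48 ± 0.95 (0.857), and 0 of 14 muscle genes were called, with a median of -1.35. Of the 32 pathway genes Slc16a1, the lactate and pyruvate carrier MCT1, fell by 2.49 on the log2 scale (adjusted p = 0.000552) and Pdk2 by 2.54 (adjusted p = 0.0315). From severed day 10 to day 14, 0 of the 9 genes passed with limma (1.38% of all probes did), and 2 had an unadjusted p under 0.05 (12.6% of all probes had). Of the 9, Aldoa had the largest difference, 2.55.

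After the sham operation, too, Eno1 was lower on day 14, here against sham day 10. Eno1 read 10.52, 11.62, 11.60, 11.65 and 11.61 on sham day 14 and 12.43, 13.22, 12.96, 12.81 and 13.05 on sham day 10. The level fell by 1.49 on the log2 scale (SE 0.35, limma adjusted p = 0.00828), as 1 of 9 genes where 3.28% of all probes were called. It was also the 1 gene with an unadjusted p under 0.05, as 15.4% of all probes had. The second probe stood at -0.45 ± 0.41 (adjusted p = 0.688), and the call was also lost with misread stretches kept (-1.30, adjusted p = 0.397). Severed and sham ligament of day 14 had the same Eno1 mean, 11.40, but in different dyes. This probe lay at the floor in the reference RNA, so no dye effect could be estimated for it. Sham day 14 was not compared with unmanipulated ligament.

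Severed against sham ligament of the same day asks what cutting the ligament adds to the operation. By limma 0 of the 9 genes passed on any of the 6 days or in their mean, where at most 0.00976% of all probes did on a day and 0.00488% in the mean. Without adjustment, p lay under 0.05 for 1 gene on day 7 (1.69% of all probes), for 1 in the mean of the 6 days (3.29%), and for 0 on days 1, 2, 4, 10 and 14 (1.09%, 2.74%, 0.3%, 1.7% and 3.56% of all probes). In each of these comparisons the count stayed at 0 with no dye term and under every other alternative run. The share of all probes did not: with no dye term it was 2.76% on day 14, 1.64% on day 2 and 0.542% on day 10, and with scaling to the 90th percentile 15.5% on day 14 and 9.16% in the mean. Within a day severed and sham columns carried different dyes, and the correction rested on the reference RNA alone. The median SE of the 9 genes was 0.76 on days 1, 2, 10 and 14, against 0.46 between fibroblasts and unmanipulated ligament.

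Slc2a1 had the largest mean over the 6 days, 0.50 ± 0.24 (unadjusted p = 0.0436, limma adjusted p = 1). On day 2 it read 11, 10.03, 10.78, 10.55 and 11.16 after severing and 10.17, 10.88, 8.30, 9.63 and 10.19 after sham, and the groups overlapped. On day 7 it read 10.76 and 10.13 in the 2 severed columns kept and 9.12, 8.80 and 9.13 after sham. The severed columns were higher there (1.46 ± 0.75, adjusted p = 1). Eno1 read 13.80 and 13.38 on severed day 7 and 11.94, 11.76 and 11.55 on sham day 7, a difference of 1.84 ± 0.68 (unadjusted p = 0.00893, limma adjusted p = 1). The brighter Eno1 probe lay at the floor in all 6 reference columns. No dye effect could be estimated for it, so its severed minus sham differences were not corrected for dye. On that day 5 of 9 genes did not overlap between the groups, and with so few columns 31.6% of all probes did not. The 3 sham day 7 columns differed by less than any other pair of columns of 1 group in their 3456 brighter, well-read spots (SD of the log2 difference 0.251 to 0.381, elsewhere at least 0.437), but not over all spots, and were counted as 3.

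On day 10, severed ligament had lower means than sham for 8 of 9 genes, with a median of -1.07 against 0.03 over all probes. Aldoa read 12.08, 10.38, 12.19, 13.13 and 11.31 after sham, and 4 of 5 severed columns lay below all of these. The difference was -2.84 ± 1.55 (limma adjusted p = 1), and the muscle list had a median of -4.13 with 0 of 14 genes above 0. On day 2 the members' median was 0.90 and the muscle median 2.08 with 14 of 14 above 0. Severed minus sham changed from day 10 to day 14 in 0 of 9 genes by limma (1 with an unadjusted p under 0.05, as in 10.7% of all probes, and 1.07% of all probes called), and 1 gene, Eno1, passed with median scaling (3.70, adjusted p = 0.0134, where 6.19% of all probes passed) and with scaling to the 90th percentile (1.84, adjusted p = 0.0152, where 39.6% did).

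**Figure D4:**
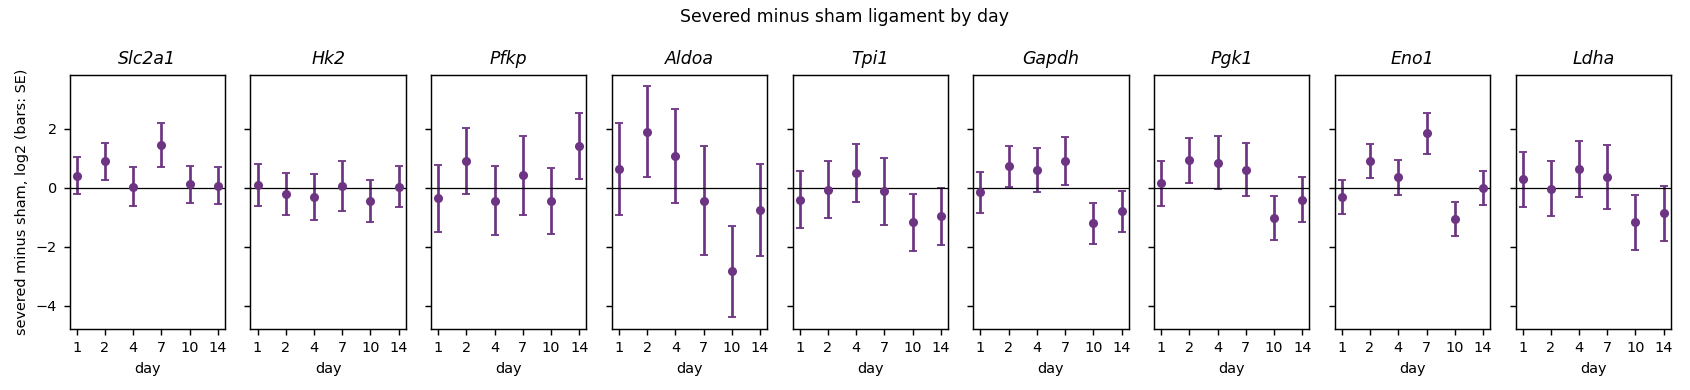
Log2 difference of severed minus sham ligament (vertical axes, bars show the SE) for each of the 9 genes by day (horizontal axes). No difference passed the threshold. Aldoa reaches -2.84 on day 10 and Eno1, for which no dye effect could be estimated, 1.84 on day 7.

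The sham operation itself was compared with no operation on days 1 and 4. On day 1 the differences of the 9 genes ran from -0.22 to 0.40 and limma called 0 of them and 0% of all probes (0 with an unadjusted p under 0.05, as in 2.21% of all probes). On day 4, 0 passed (0.127% of all probes did), and 3 had an unadjusted p under 0.05 (10.1% of all probes had), namely Aldoa at -2.75, Ldha at -1.25 and Gapdh at -1.23. With the authors' series matrix values Aldoa and Gapdh passed (-3.11, adjusted p = 0.0191, and -2.06, adjusted p = 0.0261), where 4.73% of all probes did. Aldoa read 7.42, 8.87, 10.73, 9.99 and 11.75 on sham day 4, where the muscle list ran from 9.94 to 14.81. On severed day 7, limma called 0 of 9 against unmanipulated ligament and 0.161% of all probes (0 with an unadjusted p under 0.05, as in 4.48% of all probes). Between severed days 1 and 4, 0 of 9 passed (1 with an unadjusted p under 0.05, as in 13.8% of all probes, and 0.7% of all probes called), and with the series matrix values 3 genes and 21.9% of all probes passed. From day 1 to day 4 the difference between severed and sham changed in 0 of 9 genes by limma (0 with an unadjusted p under 0.05, as in 3.27% of all probes, and 0% of all probes called).

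Against the reference RNA, 7 of 9 genes were called, where 29.6% of all probes were. Of these, 6 were lower in unmanipulated ligament, and the direction of Eno1 differed between its probes. All 9 genes and 37.5% of all probes had an unadjusted p under 0.05. The 6 reference columns are repeat measurements of 1 RNA and entered the fit as 6 samples. The p-values against the reference thus treat repeat measurements as replicates. Hk2 read 10.46, 10.36, 10.13, 10.32, 10.27 and 10.10 in the reference and 7.59 in the 1 unmanipulated ligament where it exceeded the negative controls. The fitted difference was -4.16 ± 0.50 (limma adjusted p = 6e-10), in which 4 of 5 unmanipulated values lay at or near background. Ldha differed by -3.01 ± 0.65 (adjusted p = 0.00019), Tpi1 by -2.52 ± 0.68 (0.00261), Pgk1 by -2.46 ± 0.54 (0.000205), Slc2a1 by -1.69 ± 0.45 (0.00225) and Gapdh by -1.39 ± 0.49 (0.0242). With median scaling only Hk2 and Eno1 passed, while 37.9% of all probes did, and Gapdh turned to 1.63. The Slc2a1 call was lost without Cy5 reference replicate 1 (-1.17, adjusted p = 0.0807). The Gapdh call was lost without Cy5 reference replicate 1 (adjusted p = 0.0568), 2 (0.0743) or 3 (0.0694) and without unmanipulated replicate 4 (0.0764) or 5 (0.0620).

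The 2 Eno1 probes went opposite ways in the reference. The brighter probe was at the floor, 5.64, in all 6 reference columns and not well above background there, so against the lowest signal well above background unmanipulated ligament was higher by at least 6.82 on the log2 scale and fibroblasts were at least 615-fold higher. The second probe read 15.62, 15.01, 14.86, 14.53, 14.67 and 14.48 in the reference and differed by -4.52 ± 0.47 (limma adjusted p = 8.58e-12) in unmanipulated ligament. No direction for Eno1 against the reference can be given from these probes. Of 1981 probes with a mean over 11 in ligament, 26 (1.31%) were at or under the controls in all reference columns.

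By group means, the reference was highest for Hk2, Pfkp, Aldoa, Tpi1, Gapdh, Pgk1 and Ldha, and fibroblasts were highest for Slc2a1. For Eno1 fibroblasts were highest on the brighter probe, and the reference was highest on the second (14.86, fibroblasts 13.08). Slc2a1 in fibroblasts (11.63) and reference (11.14) differed by less than their pooled SD of 0.62. For Slc2a1, no neighbours in the order differed by more than their pooled SD, from 11.63 down to 9.01 on sham day 14. Severed day 10 had the lowest mean for Aldoa (9.48 ± 1.17 SD, n = 5), Gapdh (12.31 ± 0.82), Pgk1 (9.90 ± 0.66) and Ldha (9.50 ± 0.52). For each of these the next group lay within the pooled SD. Severed day 14 was lowest for Tpi1 (9.35 ± 1.26). For Pfkp and Hk2 the lower groups lay mostly at or near background and are given no order.

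The 9 genes did not form 1 block across the ligament columns. The median correlation over all pairs was 0.24 over up to 59 columns. Pairs with Hk2 or Gapdh rested on at most 57 columns and pairs with Pgk1 on at most 55. Aldoa and Gapdh went together most closely (0.87), followed by Aldoa with Pgk1 (0.73) and Gapdh with Pgk1 (0.71). Slc2a1 went with Eno1 (0.67) and less with the others (-0.13 to 0.34). Pfkp went with Ldha (0.54), and Hk2 was below 0 with 7 of its 8 partners. The named genes most like the mean of the members, by Pearson correlation over these columns among 18523 probes, were Mrpl17, a mitochondrial ribosomal protein (0.78), Nsfl1c, a cofactor of the ATPase p97 (0.74), Hsp90ab1, a chaperone (0.74), Mdh2, mitochondrial malate dehydrogenase (0.73), and Aldoa-ps1 (0.72). The last is annotated as a pseudogene of Aldoa, and a probe for one may also bind the other's RNA.

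Ldha was printed in 10 spots, which shows how evenly an array was read. In 26 of 72 columns at least 1 spot lay more than 2 below the column's median. Those low spots lay in array row 5 in 18 columns, in row 11 in 15, in row 24 in 10 and in 1 further row in 3, and in no other row. In the 4 fibroblast columns other than the first the SD of the 10 spots was 0.13 to 0.18, and in the first it was 3.15. With the median of the spots in place of their mean, the number of genes called was the same in every comparison.

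**Figure D5:**
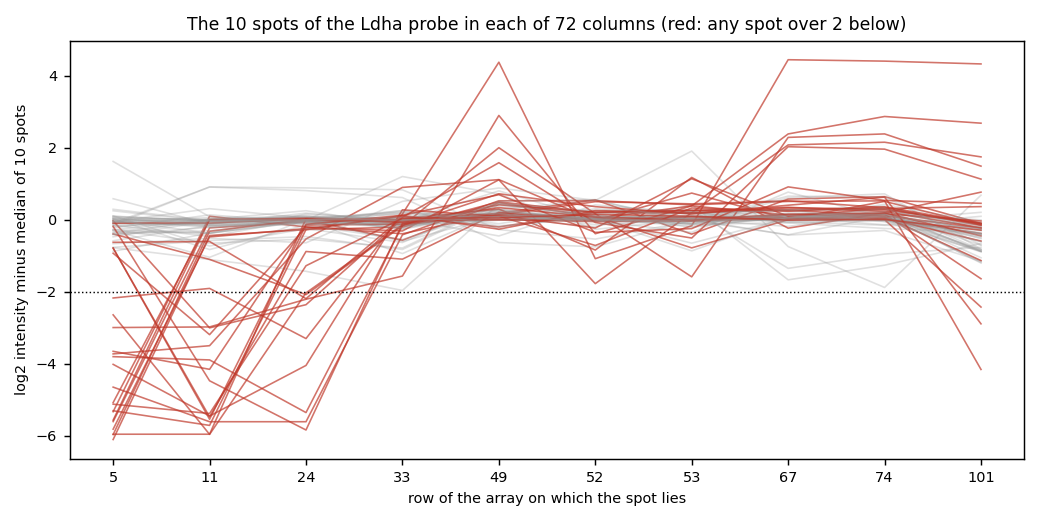
Deviation of each of the 10 Ldha spots from its column's median (vertical axis, log2) against the row of the array (horizontal axis), 1 line per column. Deviations of more than 2 downward occur in rows 5, 11 and 24 and in 3 columns in 1 row near the other end.

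Of 18 genes of the hypoxia response outside the pathway, 2 rose and 1 fell in fibroblasts against unmanipulated ligament. Ero1a, an oxidase of the endoplasmic reticulum, rose by 3.14 ± 0.56 (limma adjusted p = 3.74e-05) and P4ha1, a collagen prolyl hydroxylase, by 1.35 ± 0.42 (adjusted p = 0.0318), while Hif1a, the transcription factor subunit itself, fell by 1.75 on the log2 scale (adjusted p = 0.00307). The median of the 18 was 0.22, and 9.02% of all probes were called in this comparison, 4.54% upward. On severed day 10 the median of the 18 against unmanipulated ligament was -0.17. There 1 of the 18 fell (1.93% of all probes were called downward). It was Egln3, a prolyl hydroxylase that marks hypoxia-inducible factor for breakdown (-2.40 ± 0.55, limma adjusted p = 0.00883). Its values lay at or near the floor, from 5.64 to 7.24 on severed day 10. On sham day 10, in the other dye, they ran from 5.64 to 6.69. On severed day 14, 0 of the 18 passed by limma (2.77% of all probes did). The largest differences were Bnip3, a mitophagy receptor (-2.64, adjusted p = 0.0516), and Egln3 (-1.86, adjusted p = 0.0503).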

How the data were processed

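Total RNA was measured on Agilent rat whole-genome arrays. The values deposited are intensities: per the file headers, the median foreground minus background of 1 scanner channel, each with a flag score per spot, per the file headers 0 or a code for a spot that was not found. Such spots made up 49.2% of values outside the fibroblasts, whose flags were not used, and were kept. The authors' series matrix, which the files give on a log2 scale, was used as an alternative. It followed the intensities at a Spearman correlation of at least 0.971, and the authors' centring is not given in the sources used here. The fibroblast columns of both tables were matched as a group only. Columns with the same flags were taken as 1 array and each fibroblast column as its own, which gave 43 arrays, 29 of them with 2 samples in different dyes. Of 44289 spots 2917 controls were left out, leaving 41012 probes, of which 18543 (45.2%) were named through a RefSeq gene table of GRCr8.

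Stretches of 500 gene spots correlating with the other columns under 0.3 were removed as misread. Columns were quantile-normalised, floored at 50 and log2-transformed. Probes over 100 in at least 3 samples were tested with limma 3.58.1 (R 4.3.3) in 1 fit of 15 group means and a dye term over 70 samples, with Benjamini-Hochberg adjustment. The brightest probe stood for a gene. The script was tested on simulated data. Precision is limited by how many arrays there are and by dim signal. The text names the 9 genes in full and, from each list, up to 4 called genes or 2 others with the largest difference. The members and lists were chosen with earlier results of these data known. On the pairing, columns on 1 array deviated together (r 0.17 to 0.91, 25 pairs), whereas other columns had a median of -0.12. File headers and labels disagree on the dyes of day 2, and the headers were followed. The alternatives changed scaling, floor, filter, dye term, dyes, block, misread limit, spots, probe and values, and left out each replicate.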

Additional observations from a re-analysis of the deposited data

Results flagged for a closer look

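Among 104 combinations of gene and group with 4 or 5 columns, 16 had a column far from the rest of its group by Dixon's criterion, and chance alone gives about 1 in 20. Fibroblast column 1 was low for Pfkp (5.64, nearest 9.29), Aldoa (5.64, nearest 12.53) and Ldha (9.18, nearest 13.01). Gapdh was high in severed day 10 replicate 5 (13.73, nearest 12.25) and low in severed day 14 replicate 4 (12.26, nearest 13.58). Sham day 14 replicate 1 was low for Eno1 (10.52, nearest 11.60) and Ldha (8.11, nearest 10.23). Eno1 was also low in sham day 1 replicate 2 (12.03, nearest 12.93) and sham day 4 replicate 5 (11.73, nearest 12.52). Aldoa was low in severed day 4 replicate 1 (6.07, nearest 11.30), and Slc2a1 in severed day 4 replicate 5 (9.04, nearest 9.76). In unmanipulated replicate 5 Hk2 was high (7.59, nearest 6.06) and Pfkp low (5.64, nearest 7.90). Pfkp was further low in sham day 1 replicate 2 (6.75, nearest 8.22) and high in sham day 2 replicate 5 (8.28, nearest 5.64) and sham day 14 replicate 4 (6.99, nearest 5.85), and several of these values lie at or near the floor.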

How the results depend on the processing

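The count of the 9 genes called was recomputed under 15 planned and 4 added alternatives and without each of 70 columns. The counts as reported were 1 for severed day 10 and 1 for severed day 14 against unmanipulated, 1 for sham day 14 against sham day 10, 3 and 6 for fibroblasts against unmanipulated and severed day 14, 7 for unmanipulated against reference, and 0 elsewhere. For severed day 10 the count was 6 with median scaling, 5 with 90th-percentile scaling, 2 with the filter of 200, 0 with misread stretches kept, 3 with a misread limit of 0.5, 2 without day 2, 6 with series matrix values and 0 with the probe of largest interquartile range. It was 3 with array-row windows, alone, with no dye term or without spots not found (kept for fibroblasts). The calls over all probes moved too. They were 1241 as reported and, in the order of these alternatives, 7165, 5247, 690, 409, 1538, 1926, 3827, 1241, 1542, 1672 and 2548. For severed day 14 the same alternatives gave 3 (median), 0 (90th percentile), 0 (kept), 2 (limit 0.5), 3 (series matrix), 0 (interquartile range) and 2, 2 and 2 (array rows). In that order 4076, 1408, 180, 1656, 1430, 1137, 1313, 1388 and 3149 of all probes were called, against 1137 as reported. Sham day 14 against sham day 10 had 0 with misread stretches kept, with series matrix values and with the interquartile probe. There 128, 809 and 1346 of all probes were called, against 1346 as reported. Severed day 14 against day 10 had 1 with 90th-percentile scaling, limit 0.5, series matrix values and array rows without spots not found. With these, 1868, 881, 960 and 3285 of all probes were called, against 566 as reported. Series matrix values gave 2 for sham day 4 against unmanipulated (1313 of all probes, 52 as reported) and 3 for severed day 4 against day 1 (4845, 287 as reported). The change from day 10 to day 14 had 1 with each scaling, where 2429 (median) and 16231 (90th percentile) of all probes were called, against 440 as reported. Fibroblasts against unmanipulated had 1 with median scaling, and 5 with series matrix values and with array rows without spots not found. With these, 6159, 5342 and 6603 of all probes were called, against 3697 as reported. Unmanipulated against reference had 2 with median scaling, where 14849 of all probes were called, against 12113 as reported. Leaving out columns gave 0 to 3 for severed day 10, 0 to 1 for severed day 14, 3 to 4 and 6 to 7 for the fibroblasts and 5 to 7 for the reference. It changed no other count. For severed day 10 the 3 came without its replicate 5 (1411 of all probes) and the 0 without unmanipulated replicate 3 (556).

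Where either value was called, the sign turned for Aldoa in fibroblasts against severed day 14 with series matrix values (2.35), and against the reference for Gapdh with median (1.63) and 90th-percentile scaling (0.25) and for Eno1 with the second probe (-4.52). Uncalled values turned sign too, among them Aldoa in fibroblasts without fibroblast column 1 (from -0.74 to 0.67 against severed day 14 and from -1.22 to 0.19 against unmanipulated). The causes were not tested. The 90th-percentile scaling moved the median of all probes from 0.07 to 0.60 for severed day 10 against unmanipulated and from 0.00 to 0.87 for sham day 14 against sham day 10. With a replicate block for the pairing on arrays (correlation 0.35), Pfkp against the reference passed (-1.91, limma adjusted p = 0.0471, count 8, with 12234 of all probes called). No other call of the 9 genes changed. The floor, no filter, the dyes of day 2, sham day 7 as 1 sample and the median of spots left each count within 1.5 times. Hk2 and Pfkp are limited by signal near background.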

Other observations

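Across the ligament columns (55 to 59, sharing arrays and depth) the members correlated with the mean of the 10 cell cycle genes at -0.18 (Hk2) to 0.64 (Eno1), with Ldha at 0.53 and Slc2a1 at 0.48. With the mean of the hypoxia list they ran from -0.35 (Hk2) to 0.69 (Ldha), with Pfkp at 0.60, Pgk1 at 0.51, Eno1 at 0.50 and Aldoa at 0.48. In fibroblasts against severed day 14, 6 of 10 cell cycle genes rose, among them Cdk1, the mitotic kinase (2.77 ± 0.79, limma adjusted p = 0.00985), and Mki67, a proliferation marker (1.88 ± 0.50, adjusted p = 0.00574). Of the 18 hypoxia genes 5 rose and 1 fell there. Ero1a rose by 3.32 ± 0.56 (adjusted p = 8.56e-06) and Hmox1, heme oxygenase 1, by 2.74 ± 0.57 (adjusted p = 0.000334), while Hif1a fell by 2.54 on the log2 scale (adjusted p = 6.75e-06). Of the 32 other glucose pathway genes 5 rose and 4 fell. Over all probes 16.1% were called in this comparison, 8.4% upward.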
